A study of Mus musculus with 9 samples.

Results

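The collagen chains were taken as the genes of the deposited count table whose symbol reads Col, a number, the letter a and a number, which gave 44 of the 24062 symbols. They were grouped by the assembly their protein enters: 11 fibrillar chains, 6 basement membrane chains (the collagen IV chains), 6 collagen VI chains, 9 FACIT chains (fibril-associated collagens with interrupted triple helices) and 12 other chains. RNA-seq had been measured in 9 libraries of C57BL/6 MEFs, that is fibroblasts cultured from mouse embryos, with 3 libraries in each of 3 groups. Cells of the p21 group received a lentivirus for p21 overexpression, cells of the p16 group a lentivirus for p16 overexpression, and cells of the EV group an empty control lentivirus. RNA was taken on day 4, and cells of every group carried the cell status non-senescent. The promoter of the lentiviral vectors was not given in the sources used here, nor was whether the replicates were separate cultures. In every group the replicate 3 library stood apart in Xist, an X chromosome transcript whose levels are given below. The spread within groups thus includes a difference between replicate 3 and the others. The spread among the other replicates may be technical alone, and the technical part of the spread behind the p-values was not tested.

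A collagen molecule is a triple helix of 3 chains, either 3 copies of 1 chain or a mixture. Chains are hydroxylated, glycosylated and folded in the endoplasmic reticulum, exported, trimmed at their ends and cross-linked outside the cell. Fibrillar collagens I, III and V form the tensile fibrils of connective tissue, collagen IV forms the sheet of basement membranes, collagen VI forms beaded filaments between fibrils and cells, and FACIT collagens sit on fibril surfaces. Embryonic fibroblasts are a classical source of collagen I.

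The library totals ran from 44455730 to 63152239 counts. The targeted genes followed the labels: Cdkn1a, which encodes p21, averaged 1604 CPM in p21 libraries, against 372 CPM in p16 and 360.1 CPM in EV libraries, and Cdkn2a, whose locus encodes p16, averaged 1731 CPM in p16 libraries, against 46.5 CPM in p21 and 37.9 CPM in EV libraries. CPM are counts scaled to a common library total of 1e+06 after TMM scaling. The treatment note of the EV libraries repeats that of the p21 libraries, and the groups here follow the lentivirus named for each library. The replicate 3 libraries of all groups stood apart: Xist, expressed from the inactive X chromosome, had 181 to 251 CPM there and at most 6.95 CPM in replicates 1 and 2. Fibroblast markers were high for Vim (mean 5389 CPM in p21, 5246 CPM in p16 and 4997 CPM in EV libraries) and Thy1 (589, 566 and 525 CPM in the same order), while the matrix proteoglycans Dcn and Lum averaged at most 3.16 CPM in any group. In these bulk libraries fewer cells of a type and less RNA per cell cannot be told apart.

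Sequence before the transcript starts is shown for 2 pairs of chains whose transcripts moved together. They are Col4a1 and Col4a2, the collagen IV chains of most basement membranes, whose annotated genes overlap at their starts, and Col6a1 and Col6a2, neighbouring collagen VI chains. Each line gives the 250 bases before a transcript start in RefSeq, build GRCm38.p6, 5′ to 3′ on the gene's own strand. Capitals mark every match, on either strand, to the TATA box letters (TATAAA), the CCAAT box letters (CCAAT) and the GC box letters (GGGCGG). Col4a1 lies on the minus strand at chr8:11312827-11313076, Col4a2 on the plus strand at chr8:11312555-11312804, Col6a1 on the minus strand at chr10:76726045-76726294, and Col6a2 on the minus strand at chr10:76623631-76623880.
Col4a1: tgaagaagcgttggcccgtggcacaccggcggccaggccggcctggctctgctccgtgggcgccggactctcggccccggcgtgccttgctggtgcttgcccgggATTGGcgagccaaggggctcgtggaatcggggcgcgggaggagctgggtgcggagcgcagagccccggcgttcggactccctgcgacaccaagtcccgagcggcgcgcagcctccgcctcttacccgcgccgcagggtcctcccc
Col4a2: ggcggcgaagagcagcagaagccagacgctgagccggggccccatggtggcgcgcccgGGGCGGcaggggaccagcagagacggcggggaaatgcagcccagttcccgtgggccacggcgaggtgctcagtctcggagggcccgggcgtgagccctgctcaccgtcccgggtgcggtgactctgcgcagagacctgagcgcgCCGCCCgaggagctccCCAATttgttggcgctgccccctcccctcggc
Col6a1: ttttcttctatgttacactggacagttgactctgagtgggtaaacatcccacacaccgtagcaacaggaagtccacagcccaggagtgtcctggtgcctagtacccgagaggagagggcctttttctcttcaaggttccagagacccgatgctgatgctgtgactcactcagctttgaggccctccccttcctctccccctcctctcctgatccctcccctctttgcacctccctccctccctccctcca
Col6a2: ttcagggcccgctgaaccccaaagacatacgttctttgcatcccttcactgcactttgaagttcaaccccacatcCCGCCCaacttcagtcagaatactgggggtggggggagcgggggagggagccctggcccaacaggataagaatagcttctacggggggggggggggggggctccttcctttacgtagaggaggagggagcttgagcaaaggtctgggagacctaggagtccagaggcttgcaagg
The Col4a1 and Col4a2 windows share no base, and each lies within the annotated span of the other gene. The Col4a1 window held 1 CCAAT match and the Col4a2 window 1 CCAAT match and 2 GGGCGG matches. The Col6a2 window held 1 GGGCGG match and the Col6a1 window no match. RefSeq also gives Col6a2 a second start, whose window at chr10:76623405-76623654, not printed, held 3 GGGCGG matches, 2 of them overlapping each other. RefSeq windows were at hand for 35 of the 44 chains. GGGCGG, the letters of the GC box, was in the windows of 21 of these 35 genes (60%), and in those of 35.4% of all 27025 genes with a window. CCAAT was in 13 of 35 (37.1%), against 37.5% of all genes, and TATAAA in 5 of 35 (14.3%), against 14.3% of all genes. No 2 of these matches overlapped in the windows printed.

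The level of each chain was expressed as CPM per kilobase of its merged exons, so that genes of different length could be set side by side. Levels spanned more than 5 orders of magnitude. Col1a1, the α1 chain of collagen I, stood first in every group, at 2304 ± 87.4 CPM per kilobase in p21, 2286 ± 117 in p16 and 2053 ± 168 in EV libraries (SD, n = 3 each). Its partner Col1a2 followed at 709 ± 33.1 in p21, 748 ± 39.5 in p16 and 673 ± 50.8 CPM per kilobase in EV libraries. In EV libraries the order went on with Col5a1 (441), Col5a2 (349), Col4a1 (241), Col4a2 (200.4), Col3a1 (179), Col6a1 (127), Col12a1 (119) and Col6a3 (73.8 CPM per kilobase). Of the first 13 chains in EV libraries, neighbours overlapped between libraries at 3 steps: Col4a2 and Col3a1, Col6a3 and Col2a1, and Col2a1 and Col8a1. Over all 43 steps in EV libraries 26 overlapped, most of them among the scarce chains, whose order is therefore loose. In p21 libraries Col4a2 (277 CPM per kilobase) and Col3a1 (143) no longer overlapped, and Col12a1 (119) stood above Col6a1 (84.1). These places depend on the length used: per kilobase of the longest transcript Col3a1 (316) stood above Col4a2 (206) in EV libraries, the pair overlapped in p21 libraries, and Col12a1 stood above Col6a1 in every group. By that length Col1a2 had 1648 CPM per kilobase in p21, 1738 in p16 and 1564 in EV libraries, nearer to Col1a1 (2550, 2530 and 2272 in the same order). Col5a2 then stood above Col5a1 in every group.

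**Figure D1:**
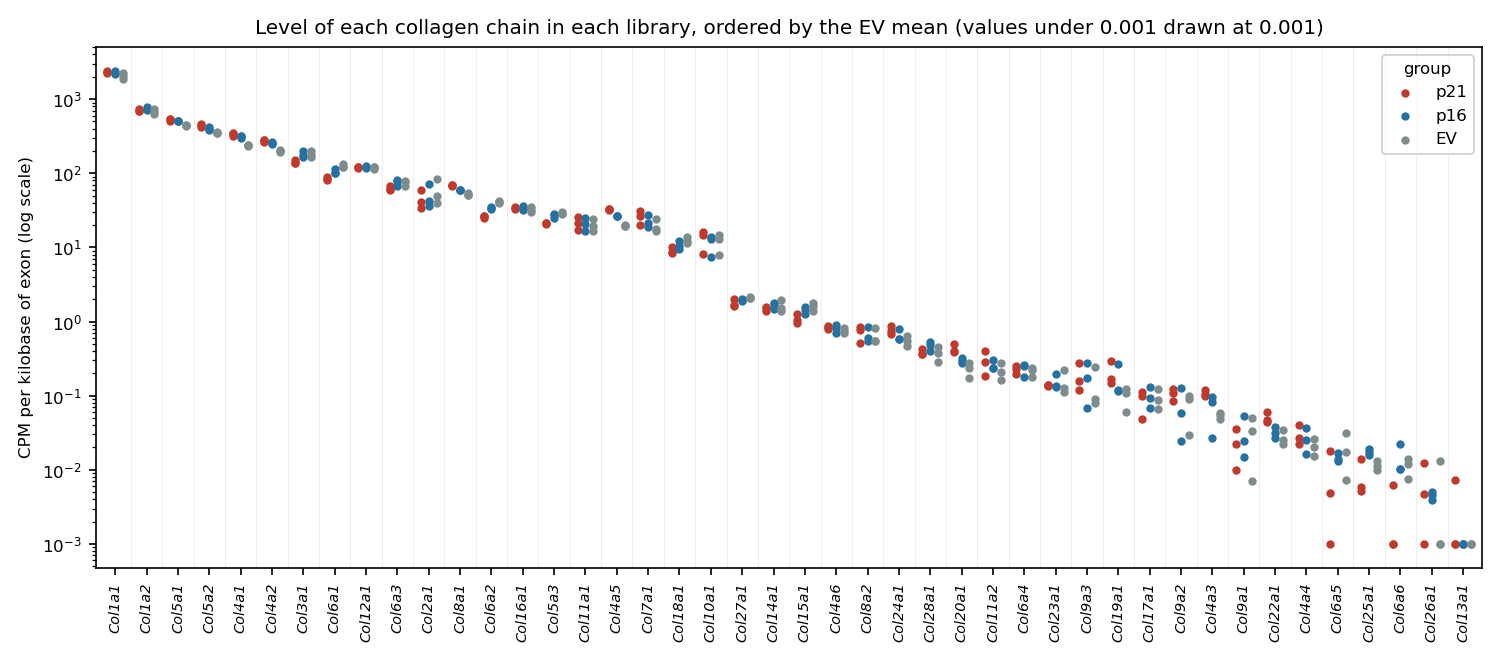
Level of each of the 44 collagen chains in each library, as CPM per kilobase of merged exon on a log axis, ordered by the EV mean; each point is 1 library and values under 0.001 are drawn at 0.001. Col1a1 stands apart at the left in all groups, and a gap separates Col10a1 (mean 11.8 CPM per kilobase in EV libraries) from Col27a1 (2.10) and the scarcer chains.

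Summed over all 44 chains, collagen transcripts had 42981, 43538 and 44863 CPM in p21 libraries, 42725, 43170 and 45854 CPM in p16 libraries, and 37464, 39171 and 41985 CPM in EV libraries. The libraries of p21 and of p16 did not overlap those of EV on this scale. As a share of all counts, without TMM scaling, the sum was 4.31 ± 0.10% of all counts in p21, 4.38 ± 0.17% in p16 and 4.03 ± 0.23% in EV libraries (SD, n = 3 each). By this share EV replicate 3 (4.27%) lay above replicate 1 of p21 (4.21%) and of p16 (4.266%), so both comparisons overlapped. The difference on the log2 scale was 0.15 for p21 against EV, 0.15 for p16 against EV and -0.00 for p21 against p16, and with library totals only 0.10, 0.12 and -0.02 (two-sided exact permutation p = 0.1, 0.1 and 0.9; the p-values are for TMM-scaled sums, and 3 libraries against 3 cannot give a p below 0.1). Col1a1 made up 34.3% and Col1a2 20.8% of the summed counts, as shares of reads that are not corrected for length.

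The classes behind this sum differed. Basement membrane chains summed to 4695, 4363 and 4621 CPM in p21 libraries, 4236, 4072 and 4261 CPM in p16 libraries and 3300.4, 3181 and 3314 CPM in EV libraries, with no overlap between any 2 groups. Their log2 difference was 0.48 for p21 against EV, 0.36 for p16 against EV and 0.12 for p21 against p16 (exact permutation p = 0.1 each, the smallest possible). Collagen VI chains summed to 1382, 1300 and 1324 CPM in p21 libraries, 1707, 1520 and 1722 CPM in p16 libraries and 1812, 1671 and 1863 CPM in EV libraries. The p21 libraries lay below all others, by -0.42 against EV and -0.30 against p16 on the log2 scale (exact permutation p = 0.1 each), and the ranges of p16 and EV overlapped (-0.11, p = 0.3), with the p16 library below the EV library of the same number in all 3 pairs. The 9 FACIT chains, of whose counts Col12a1 held 88.4%, had summed log2 differences of 0.00, 0.05 and -0.04 for p21 against EV, p16 against EV and p21 against p16 (exact permutation p = 1, 0.3 and 0.3). Fibrillar chains differed by 0.14 for p21 against EV and 0.15 for p16 against EV (exact permutation p = 0.1 and 0.2), with the higher library that of p21 or p16 in all 3 pairs of each comparison, and by -0.01 for p21 against p16 (exact permutation p = 1). The 12 other chains summed to 874, 969.6 and 926 CPM in p21 libraries, 809, 791 and 872 CPM in p16 libraries and 732, 729 and 784 CPM in EV libraries. Their log2 differences were 0.30 for p21 against EV, 0.14 for p16 against EV and 0.16 for p21 against p16 (exact permutation p = 0.1 each).

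**Figure D2:**
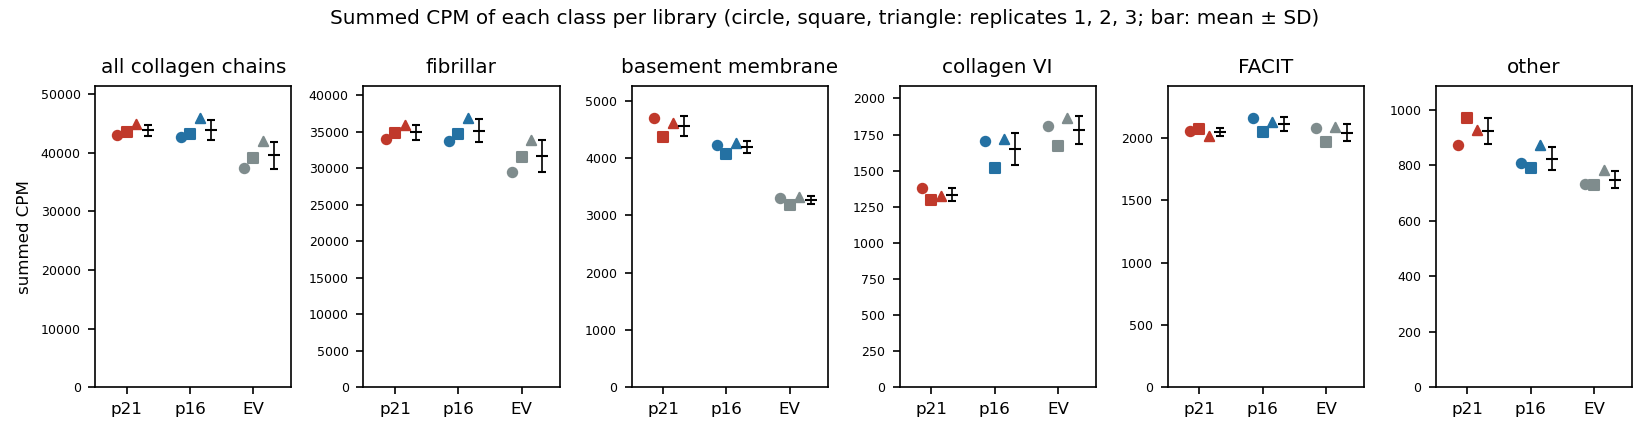
Summed CPM of all collagen chains and of each class, 1 point per library (circle, square and triangle for replicates 1, 2 and 3), with the mean ± SD of each group beside them and axes starting at 0. The basement membrane sum of each p21 and p16 library is at least 4072 CPM and that of each EV library at most 3314 CPM, while the collagen VI sum of the p21 libraries is at most 1382 CPM.

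In p21 against EV libraries, 20 of the 39 chains with enough counts for the test changed, 12 higher and 8 lower. The test was edgeR's quasi-likelihood F test at a Benjamini-Hochberg adjusted p under 0.05 over 14223 genes, of which 40.0% passed in this comparison, 19.8% higher and 20.1% lower. The chains' share of 51.3% was thus read against a large background, and their median log2 fold change was 0.14, against 0.00 over all genes tested. By class, 4 of 6 basement membrane chains rose, 3 of 4 tested collagen VI chains fell, 4 fibrillar chains rose and 3 fell of 11, 3 of 8 tested FACIT chains rose, and of 10 tested other chains 1 rose and 2 fell. Of the 20 calls, 13 held in every one of 17 alternatives, and the other 7 were those of Col1a1, Col4a3, Col6a3, Col19a1, Col22a1, Col24a1 and Col27a1. With the replicate number as a block 24 chains passed, 15 higher and 9 lower, where 48.2% of all genes did. The p21 and EV libraries did not overlap for 18 of the 39 tested chains, 11 higher and 7 lower, a share near the 49.1% of all genes without overlap.

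In p16 against EV libraries, 8 of the 39 tested chains changed, 6 higher and 2 lower, where 11.4% of all genes passed (5.80% higher and 5.56% lower). The chains' share was 20.5%, with a median log2 fold change of 0.10, against 0.00 over all genes. All 8 calls held in all 17 alternatives: Col4a1, Col4a2, Col4a5, Col5a1, Col5a2 and Col8a1 rose, and Col6a1 and Col6a2 fell. With the replicate number as a block, 13 chains passed (8 higher and 5 lower), where 21.4% of all genes did. The p16 and EV libraries did not overlap for 12 of the 39 tested chains, 8 higher and 4 lower, a share near the 32.7% of all genes without overlap. Both comparisons use the same EV libraries, so their values are given side by side and their likeness is not tested.

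In p21 against p16 libraries, which share no control, 8 of 39 chains differed, where 13.1% of all genes did (6.15% higher and 6.91% lower). Col4a5, Col8a1 and Col5a2 were higher in p21 libraries, and Col6a1, Col6a2, Col6a3, Col5a3 and Col3a1 were lower. With the replicate block 16 chains passed, 7 higher and 9 lower, where 22.6% of all genes did. The p21 and p16 libraries did not overlap for 15 of the 39 tested chains, 9 higher and 6 lower, where 31.2% of all genes did not. The calls of Col5a2 and Col6a3 did not hold in every alternative.

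**Figure D3:**
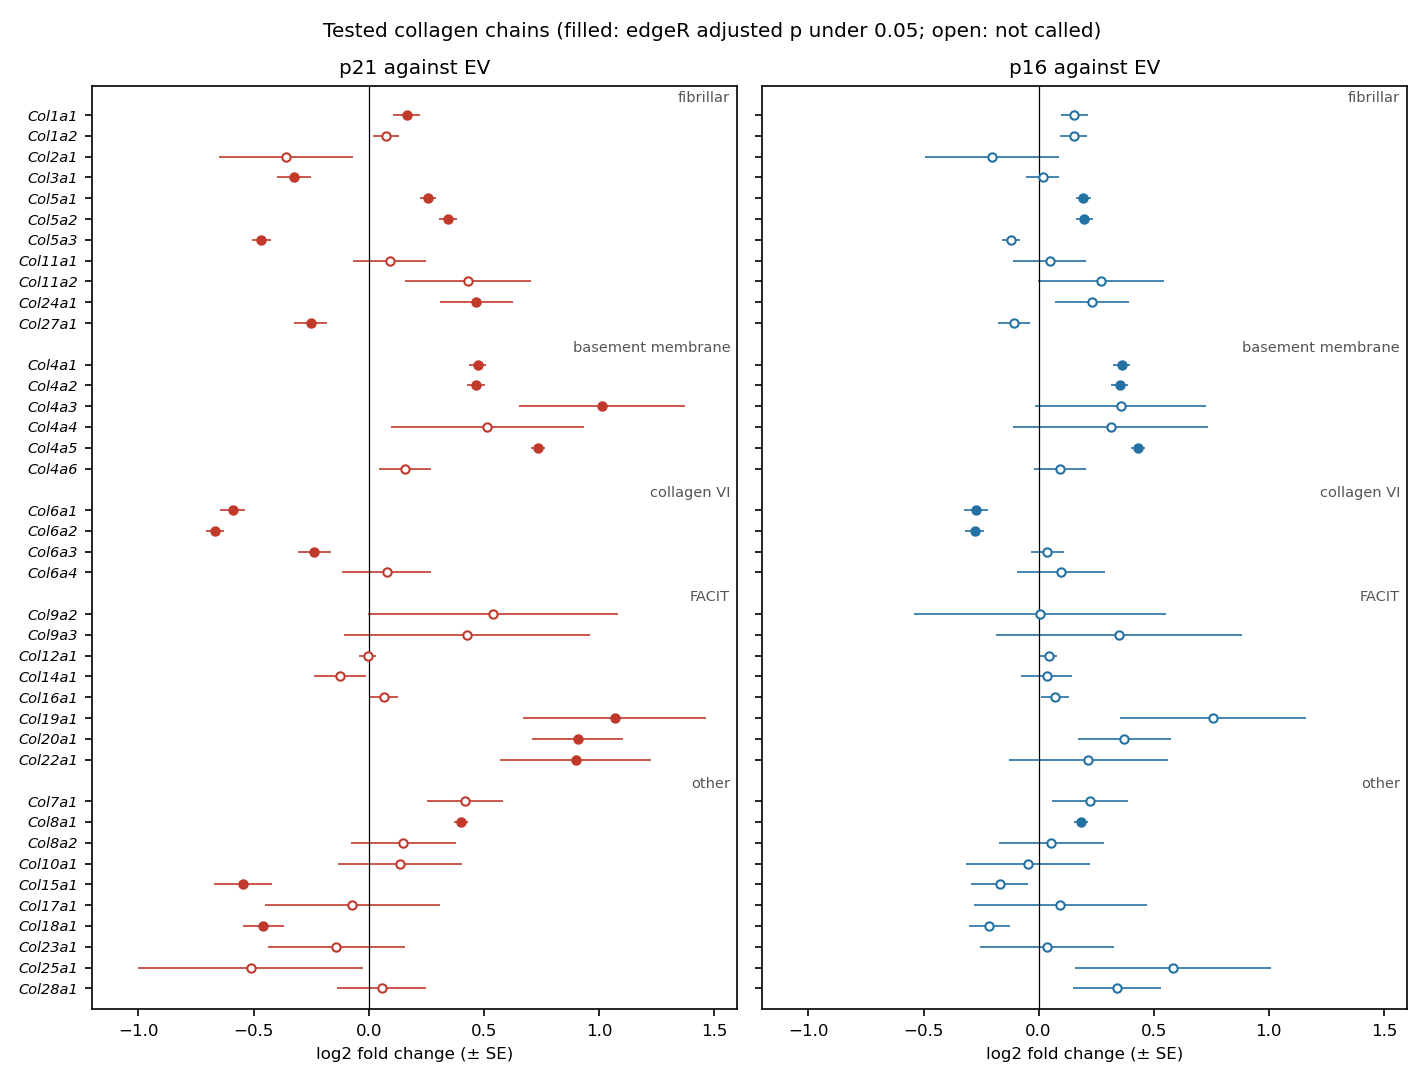
Log2 fold change with its standard error for the 39 tested chains by class, with p21 against EV on the left and p16 against EV on the right; filled points passed the edgeR test at an adjusted p under 0.05. The collagen IV chains all lie right of 0 in both panels, and Col6a1 and Col6a2 lie left of 0 in both, farther from it with p21.

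Among basement membrane chains, Col4a5, which joins Col4a6 or Col4a3 and Col4a4 in collagen IV of smooth muscle, kidney and other tissues, had 223, 218 and 217 CPM in p21 libraries, 177, 181 and 176 CPM in p16 libraries and 134, 132 and 130 CPM in EV libraries. The 3 groups were separate, with p21 highest and EV lowest. The log2 fold change was 0.74 ± 0.030 (SE) for p21 against EV (edgeR adjusted p = 1.97e-08), 0.43 ± 0.030 for p16 against EV (edgeR adjusted p = 1.50e-05) and 0.30 ± 0.030 for p21 against p16 (edgeR adjusted p = 5.00e-05). It had the smallest adjusted p of all chains in the p21 comparison.

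Col4a1, the more common chain of the classical collagen IV trimer, had 2595, 2398 and 2507 CPM in p21 libraries, 2361, 2233 and 2343 CPM in p16 libraries and 1823, 1760 and 1817 CPM in EV libraries. Col4a2, the other chain of that trimer, had 1869, 1738 and 1889 CPM in p21 libraries, 1691, 1650 and 1734 CPM in p16 libraries and 1335, 1282 and 1361 CPM in EV libraries. All 3 groups were separate for both genes. Col4a1 rose by 0.47 ± 0.037 with p21 (edgeR adjusted p = 1.20e-06) and by 0.36 ± 0.037 with p16 (edgeR adjusted p = 2.34e-04). Col4a2 rose by 0.47 ± 0.039 with p21 (edgeR adjusted p = 2.09e-06) and by 0.35 ± 0.039 with p16 (edgeR adjusted p = 3.49e-04). The difference between p21 and p16 was 0.11 for each and did not pass (edgeR adjusted p = 0.0656 for Col4a1 and 0.0721 for Col4a2). With the replicate block it did (edgeR adjusted p = 0.00199 and 0.00221), as it did for both without p21 replicate 2, with no filter and with DESeq2 (DESeq2 adjusted p = 0.0276 and 0.0345). Col4a1 also passed with limma-voom (limma-voom adjusted p = 0.0407). Of 17 alternatives the difference thus passed in 5 for Col4a1 and 4 for Col4a2. The annotated genes lie head to head on chromosome 8 and overlap by 22 bases at their starts, which lie between the windows printed above. The library kit kept no strand, so reads in those bases cannot be assigned to 1 gene.

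The other collagen IV chains were scarce. Col4a3, a chain of the kidney and lung form, had 1.06, 0.998 and 1.20 CPM in p21 libraries, 0.812, 0.954 and 0.265 CPM in p16 libraries and 0.577, 0.480 and 0.555 CPM in EV libraries. Its log2 fold change with p21 was 1.01 ± 0.36 (edgeR adjusted p = 0.0403), a call that was lost without any 1 of the p21 or EV libraries or without p16 replicate 1 (highest edgeR adjusted p = 0.119). The call of Col4a3 held with the replicate block (edgeR adjusted p = 0.0125). An antisense gene shares 5.65% of its exon bases. Col4a4 averaged 0.317 CPM in p21, 0.275 CPM in p16 and 0.217 CPM in EV libraries, with 9 to 19 counts per library, and did not pass in any comparison. Col4a6, which lies head to head with Col4a5 on chromosome X at a distance of 1308 bases, averaged 6.71 ± 0.32 CPM in p21, 6.44 ± 0.87 CPM in p16 and 6.02 ± 0.54 CPM in EV libraries. These ranges overlapped, and its log2 fold change with p21 was 0.16 ± 0.11 (edgeR adjusted p = 0.297), beside 0.74 for Col4a5 on the other side of that interval.

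**Figure D4:**
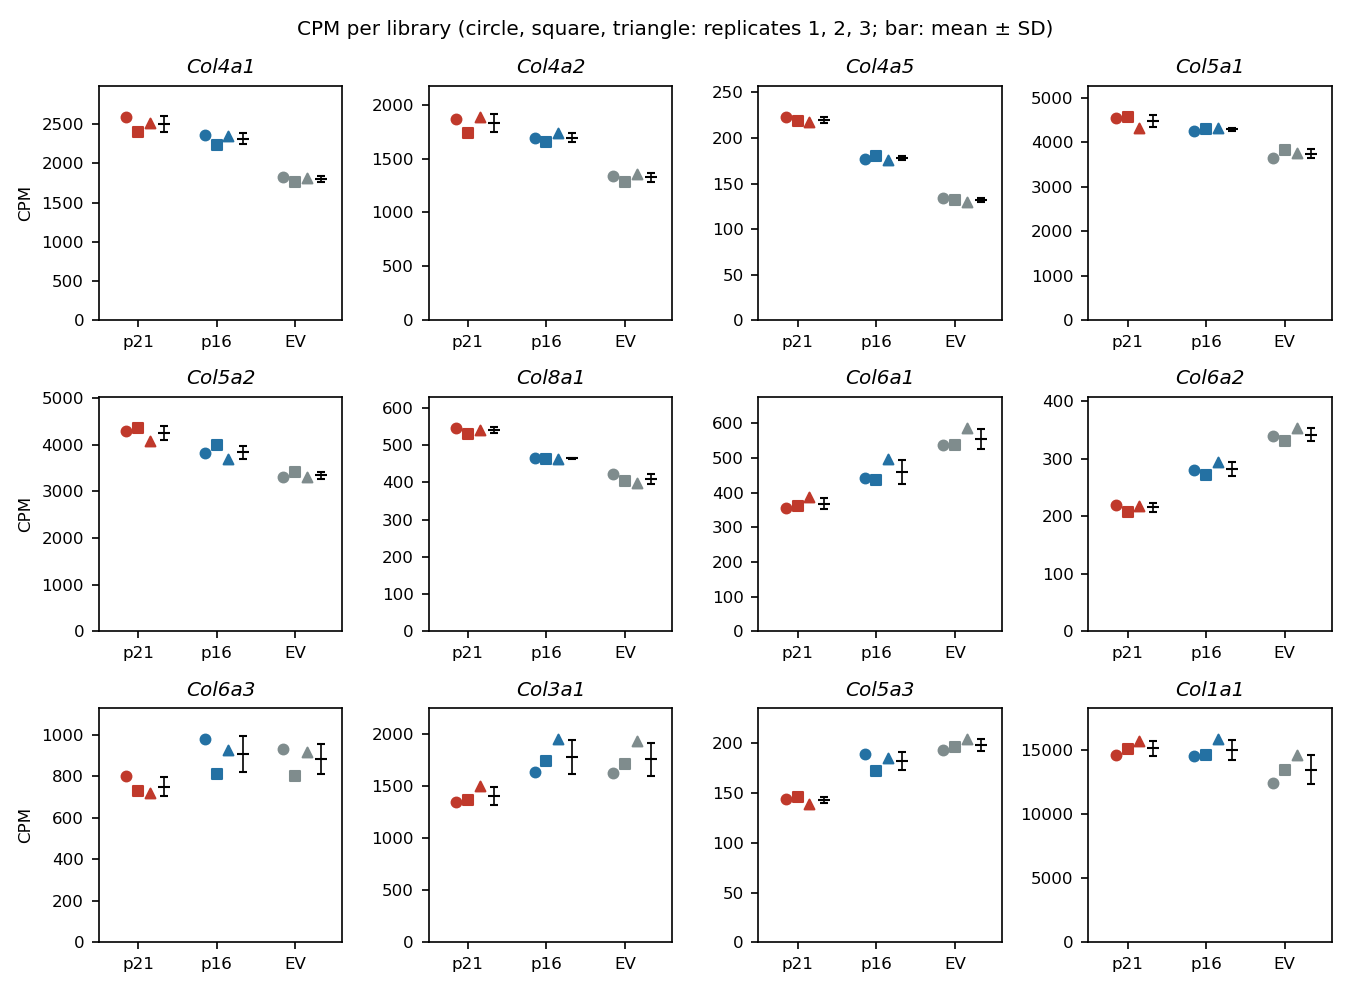
CPM of 12 collagen chains in each library (circle, square and triangle for replicates 1, 2 and 3) with the mean ± SD of each group, on axes starting at 0. The p21 and EV libraries are separate in 10 of the 12 panels and overlap for Col6a3 and Col1a1. By their means, the p16 libraries lie between those of p21 and EV for Col4a1, Col4a2, Col4a5, Col5a1, Col5a2, Col8a1, Col6a1, Col6a2, Col5a3 and Col1a1.

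Collagen VI is built from α1, α2 and one of the longer chains. Col6a2, its α2 chain, had 221, 207 and 218 CPM in p21 libraries, 281, 271 and 294 CPM in p16 libraries and 340.5, 332 and 354 CPM in EV libraries. Col6a1, its α1 chain, had 357, 361 and 386 CPM in p21 libraries, 443, 436 and 498 CPM in p16 libraries and 538, 538 and 588 CPM in EV libraries. For both chains all p21 libraries were lowest and all EV libraries highest. Col6a2 changed by -0.67 ± 0.040 with p21 (edgeR adjusted p = 1.47e-07), and with p16 its log2 fold change was -0.28 ± 0.039 (edgeR adjusted p = 0.00113). Col6a1 changed by -0.59 ± 0.054 with p21 (edgeR adjusted p = 4.15e-06) and by -0.27 ± 0.053 with p16 (edgeR adjusted p = 0.00726). The fall was larger with p21 than with p16, by -0.39 ± 0.039 for Col6a2 (edgeR adjusted p = 5.88e-05) and -0.32 ± 0.054 for Col6a1 (edgeR adjusted p = 0.00217).

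Col6a3, the long partner chain, had 802, 729 and 717 CPM in p21 libraries, 981, 811 and 927 CPM in p16 libraries and 931, 799.5 and 918 CPM in EV libraries. The p21 libraries lay below all p16 libraries, and p21 replicate 1 overlapped the EV range. Its log2 fold change was -0.24 ± 0.072 for p21 against EV (edgeR adjusted p = 0.0203), -0.27 ± 0.072 for p21 against p16 (edgeR adjusted p = 0.0268) and 0.04 ± 0.072 for p16 against EV (edgeR adjusted p = 0.797). The first call was lost without EV replicate 1 or 3 or p21 replicate 2 or 3 (highest edgeR adjusted p = 0.0835), and the p21 against p16 call without replicate 2 or 3 of p21 or replicate 1 or 3 of p16 (highest edgeR adjusted p = 0.115). Both calls were also lost with replicates 1 and 2 alone, and both held with the replicate block (edgeR adjusted p = 5.76e-06 and 3.09e-06). Col6a4, another long chain, averaged 1.92 CPM in p21, 1.96 CPM in p16 and 1.83 CPM in EV libraries and did not pass in any comparison. Col6a5, with 0 to 14 counts per library, and Col6a6, with 0 to 10, were under the filter.

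Among fibrillar chains, those of collagen V, which starts and limits the width of collagen I fibrils, split. Col5a2 had 4288, 4367 and 4089.5 CPM in p21 libraries, 3822, 3988 and 3703 CPM in p16 libraries and 3300.3, 3425 and 3304 CPM in EV libraries. Col5a1 had 4542, 4578 and 4326 CPM in p21 libraries, 4257, 4296 and 4314 CPM in p16 libraries and 3645, 3835 and 3762 CPM in EV libraries. The groups were separate for both chains. Col5a2 rose by 0.35 ± 0.038 with p21 (edgeR adjusted p = 2.09e-05) and by 0.20 ± 0.038 with p16 (edgeR adjusted p = 0.00640). Col5a1 rose by 0.26 ± 0.034 with p21 (edgeR adjusted p = 8.55e-05) and by 0.19 ± 0.034 with p16 (edgeR adjusted p = 0.00411). Between p21 and p16, Col5a2 differed by 0.15 ± 0.038 (edgeR adjusted p = 0.0258), which was lost without replicate 1 or 2 of p21 or replicate 1 or 3 of p16 and with only the 2 groups fitted (highest edgeR adjusted p = 0.121). This call held with the replicate block (edgeR adjusted p = 9.05e-05). Col5a1 differed by 0.06 ± 0.034 between p21 and p16 (edgeR adjusted p = 0.260).

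Col5a3, the third collagen V chain, had 144, 146 and 139 CPM in p21 libraries, 189, 172 and 185 CPM in p16 libraries and 193, 196 and 205 CPM in EV libraries. The p21 libraries were lowest, and p16 libraries lay just below those of EV. It changed by -0.47 ± 0.041 with p21 (edgeR adjusted p = 3.14e-06) and by -0.35 ± 0.041 for p21 against p16 (edgeR adjusted p = 1.90e-04). Its difference for p16 against EV was -0.12 ± 0.041 (edgeR adjusted p = 0.0797), which passed with library totals alone and with the block on replicate number (edgeR adjusted p = 0.0235).

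Col3a1, which forms homotrimers that mix with collagen I fibrils, had 1345, 1361 and 1501 CPM in p21 libraries, 1636, 1742 and 1955 CPM in p16 libraries and 1625, 1711 and 1932 CPM in EV libraries. All p21 libraries lay below the other 6, and those of p16 and EV overlapped. Col3a1 changed by -0.32 ± 0.072 with p21 (edgeR adjusted p = 0.00338) and by -0.34 ± 0.072 for p21 against p16 (edgeR adjusted p = 0.00838). With p16 its log2 fold change was 0.02 ± 0.072 (edgeR adjusted p = 0.915). It lies tail to tail with Col5a2 on chromosome 1, 24614 bases away, and with p21 the pair moved in opposite directions.

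The collagen I chains moved little. Col1a1 had 14591, 15038 and 15729 CPM in p21 libraries, 14492, 14634 and 15888 CPM in p16 libraries and 12409, 13405 and 14612 CPM in EV libraries. Its groups overlapped at the replicate 3 EV library, which was above the lowest p21 and p16 libraries. Its log2 fold change was 0.17 ± 0.059 with p21 (edgeR adjusted p = 0.0391) and 0.16 ± 0.059 with p16 (edgeR adjusted p = 0.111). The p21 call was lost without EV replicate 1 or 2 or p21 replicate 2 or 3, with library totals only and with only the 2 groups fitted (highest edgeR adjusted p = 0.131). It held with the replicate block (edgeR adjusted p = 4.43e-06). The p16 difference passed without EV replicate 3, with no filter, with DESeq2, with replicates 1 and 2 alone and with the replicate block (edgeR adjusted p = 5.67e-05). Col1a2 had 8504, 8659 and 9281 CPM in p21 libraries, 8839, 9226 and 9814 CPM in p16 libraries and 7756, 8317 and 9016 CPM in EV libraries. Its log2 fold changes of 0.08 ± 0.058 with p21 and 0.15 ± 0.058 with p16 did not pass (edgeR adjusted p = 0.322 and 0.112), and both did so with the block on replicate number (edgeR adjusted p = 0.00867 and 4.72e-05). For p21 against p16 it was -0.08 ± 0.058 (edgeR adjusted p = 0.435, and 0.0212 with the block).

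Cartilage-type fibrillar chains varied more by replicate number than by group. Col2a1, the main collagen of cartilage, had 310, 377 and 556 CPM in p21 libraries, 335, 385 and 666 CPM in p16 libraries and 371, 456 and 767 CPM in EV libraries. The groups overlapped, and replicate 3 was highest in each of them. Its log2 fold change of -0.36 ± 0.29 with p21 did not pass (edgeR adjusted p = 0.358) but did with the replicate block (edgeR adjusted p = 6.49e-08), and within each replicate number the p21 library was below the EV library. With p16 it was -0.20 ± 0.29 (edgeR adjusted p = 0.722, and 3.32e-04 with the block), and for p21 against p16 -0.16 ± 0.29 (edgeR adjusted p = 0.786, and 0.00876 with the block). Beside it, 9 cartilage cell markers in the table summed to 32.4 to 43.1 CPM in p21 libraries, 38.4 to 47.6 CPM in p16 libraries and 49.4 to 73.3 CPM in EV libraries. Of 7 tested, 3 were lower with p21 (42.9%), where 20.1% of all genes were lower, and Matn1 was at 0. The part of these markers in the Col2a1 values was not tested.

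Col11a1, which sets fibril width in cartilage, had 222, 268 and 326 CPM in p21 libraries, 213, 265 and 313 CPM in p16 libraries and 212, 247 and 306 CPM in EV libraries. Its difference with p21 was 0.09 ± 0.16 (edgeR adjusted p = 0.679, and 0.0184 with the replicate block). Col11a2, its partner, averaged 2.01 CPM in p21, 1.78 CPM in p16 and 1.48 CPM in EV libraries, with a log2 fold change of 0.43 ± 0.27 with p21 (edgeR adjusted p = 0.237). Of the minor fibrillar chains, Col24a1 had 5.22, 6.58 and 5.62 CPM in p21 libraries, 4.36, 4.42 and 6.03 CPM in p16 libraries and 4.15, 3.53 and 4.93 CPM in EV libraries. It rose with p21 by 0.47 ± 0.16 (edgeR adjusted p = 0.0335), lost without EV replicate 1 or 2 or p21 replicate 2 or 3 and with library totals only (highest edgeR adjusted p = 0.133). This call held with the replicate block (edgeR adjusted p = 0.00357). Col27a1 had 21.9, 26.2 and 21.1 CPM in p21 libraries, 25.8, 26.1 and 24.3 CPM in p16 libraries and 26.9, 28.0 and 27.3 CPM in EV libraries. It changed by -0.25 ± 0.071 with p21 (edgeR adjusted p = 0.0133), lost without EV replicate 2 or p21 replicate 1 and with replicates 1 and 2 alone (highest edgeR adjusted p = 0.0610). This call held with the replicate block (edgeR adjusted p = 8.03e-04).

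Of the FACIT chains, the abundant members stayed near their EV level. Col12a1, which binds collagen I fibrils, had 1823, 1824 and 1767 CPM in p21 libraries, 1929, 1804 and 1864 CPM in p16 libraries and 1863, 1736 and 1832 CPM in EV libraries. All groups overlapped, with log2 fold changes of -0.00 ± 0.037 with p21 and 0.04 ± 0.037 with p16. Col16a1 averaged 228 ± 7.85 CPM in p21, 229 ± 16.4 CPM in p16 and 218 ± 18.5 CPM in EV libraries, and Col14a1 10.4, 11.6 and 11.4 CPM in the same order. Neither passed in any comparison.

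The FACIT chains that rose with p21 were all near 2 CPM or lower. Col20a1 had 2.09, 2.54 and 2.01 CPM in p21 libraries, 1.42, 1.65 and 1.49 CPM in p16 libraries and 0.902, 1.41 and 1.22 CPM in EV libraries. The 3 groups were separate, and the log2 fold change with p21 was 0.91 ± 0.20 (edgeR adjusted p = 0.00292, at most 0.0136 in the alternatives). Its difference for p16 against EV was 0.37 ± 0.20 (edgeR adjusted p = 0.270). For p21 against p16 it was 0.54 ± 0.19 (edgeR adjusted p = 0.0885, and 0.0314 with the replicate block). Col19a1 had 1.16, 1.02 and 2.03 CPM in p21 libraries, 0.812, 0.795 and 1.83 CPM in p16 libraries and 0.415, 0.755 and 0.854 CPM in EV libraries, with replicate 3 highest in each group. Its rise of 1.07 ± 0.40 with p21 (edgeR adjusted p = 0.0488) was lost in 9 of 17 alternatives: without EV replicate 1 or 2, p21 replicate 1 or 3 or p16 replicate 1 or 2, with library totals only, limma-voom and replicates 1 and 2 alone (highest edgeR adjusted p = 0.210). This rise held with the replicate block (edgeR adjusted p = 0.00214). Col22a1, at 12 to 33 counts per library, averaged 0.467 CPM in p21, 0.293 CPM in p16 and 0.254 CPM in EV libraries. Its rise of 0.90 ± 0.33 with p21 (edgeR adjusted p = 0.0447) held in 3 of the 17 alternatives only, and of the settings that leave out 1 library only the one without EV replicate 3 kept it (edgeR adjusted p = 0.0617 with the replicate block). Of the collagen IX chains, Col9a2 averaged 0.329 CPM in p21, 0.219 CPM in p16 and 0.226 CPM in EV libraries, Col9a3 0.709, 0.664 and 0.530 CPM in the same order, and neither passed. Col9a1, with 2 to 17 counts per library, was under the filter. With p16 no FACIT chain passed the edgeR test, and 0 had an unadjusted p under 0.05.

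Among the other chains, Col8a1, a short network-forming chain of vessel walls and of Descemet's membrane, had 547, 530 and 541 CPM in p21 libraries, 465, 464 and 464 CPM in p16 libraries and 423, 403 and 398 CPM in EV libraries. The 3 groups were separate. Col8a1 rose by 0.40 ± 0.030 with p21 (edgeR adjusted p = 9.42e-07), by 0.18 ± 0.030 with p16 (edgeR adjusted p = 0.00287) and by 0.22 ± 0.030 for p21 against p16 (edgeR adjusted p = 6.33e-04). Col8a2, its partner chain, averaged 3.16 ± 0.74 CPM in p21, 2.96 ± 0.70 CPM in p16 and 2.85 ± 0.70 CPM in EV libraries and did not pass.

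Col18a1, a basement membrane proteoglycan whose end fragment is endostatin, had 59.4, 60.8 and 70.6 CPM in p21 libraries, 67.7, 73.2 and 85.2 CPM in p16 libraries and 81.6, 85.1 and 95.7 CPM in EV libraries. The p21 libraries lay below the EV libraries, and the p16 libraries overlapped both. It changed by -0.46 ± 0.089 with p21 (edgeR adjusted p = 0.00141). Its log2 fold change was -0.21 ± 0.089 with p16 (edgeR adjusted p = 0.146, and 2.01e-04 with the block) and -0.24 ± 0.089 for p21 against p16 (edgeR adjusted p = 0.0944, and 5.44e-05 with the block). The p16 difference also passed without p16 replicate 3, and the p21 against p16 difference without p21 replicate 3. Col15a1, of the same multiplexin family, had 6.01, 6.67 and 8.07 CPM in p21 libraries, 8.99, 8.03 and 9.98 CPM in p16 libraries and 10.4, 8.80 and 11.1 CPM in EV libraries. Its p21 and EV libraries were separate, and it changed by -0.55 ± 0.13 with p21 (edgeR adjusted p = 0.00428). With p16 it was -0.17 ± 0.12 (edgeR adjusted p = 0.432). For p21 against p16 it was -0.38 ± 0.13 (edgeR adjusted p = 0.0699). This difference passed in 5 of 17 alternatives: with no filter, with DESeq2, with replicates 1 and 2 alone, without p21 replicate 3 and with the block on replicate number (edgeR adjusted p = 0.00251). These chains of the basement membrane zone thus fell with p21, where Col4a1, Col4a2, Col4a3 and Col4a5 rose.

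Col7a1, the anchoring fibril collagen of skin, had 209, 315 and 274 CPM in p21 libraries, 220.4, 196 and 282 CPM in p16 libraries and 171, 181 and 246 CPM in EV libraries. The groups overlapped. Its log2 fold change with p21 was 0.42 ± 0.17 (edgeR adjusted p = 0.0614), and it passed with the block on replicate number (edgeR adjusted p = 2.15e-04), with no filter, with replicates 1 and 2 alone and without EV replicate 3, p21 replicate 1 or p16 replicate 3. Col10a1, the collagen of hypertrophic cartilage, had 46.6, 49.8 and 25.8 CPM in p21 libraries, 40.6, 43.4 and 23.4 CPM in p16 libraries and 40.4, 45.5 and 24.9 CPM in EV libraries. Replicate 3 was lowest in each group, and the difference with p21 was 0.14 ± 0.27 (edgeR adjusted p = 0.726, and 0.0204 with the block). For p21 against p16 it was 0.18 ± 0.27 (edgeR adjusted p = 0.726, and 0.00568 with the block). The transmembrane chains Col17a1 and Col23a1 averaged 0.516 and 0.789 CPM in p21, 0.586 and 0.886 CPM in p16 and 0.555 and 0.879 CPM in EV libraries. Col25a1, a membrane collagen of neurons, averaged 0.108 CPM in p21, 0.225 CPM in p16 and 0.148 CPM in EV libraries, and Col28a1 1.89, 2.31 and 1.83 CPM in the same order. None of these 4 passed in any comparison. Col13a1, with 0 to 2 counts per library, and Col26a1, with 0 to 6, were under the filter.

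Chains that share a trimer were set beside each other as ratios of their CPM per kilobase of merged exons. The Col4a1 to Col4a2 ratio was 1.21 ± 0.029 in p21, 1.21 ± 0.023 in p16 and 1.20 ± 0.018 in EV libraries (SD, n = 3 each). The Col1a1 to Col1a2 ratio was 3.25 ± 0.040 in p21 libraries, against 3.06 ± 0.051 in p16 and 3.05 ± 0.020 in EV libraries, and the p21 libraries lay above all others. Per length of the longest transcript the same ratio was 1.55 in p21, 1.46 in p16 and 1.45 in EV libraries, a change of length that scales all libraries alike. The Col6a3 to Col6a1 ratio was 0.747 ± 0.072 in p21 and 0.724 ± 0.075 in p16 libraries, against 0.583 ± 0.046 in EV libraries. Each p21 and p16 library lay above all EV libraries in this ratio. The Col5a1 to Col5a2 ratio was 1.19 ± 0.0067 in p21 libraries, against 1.26 ± 0.050 in p16 and 1.27 ± 0.019 in EV libraries. Per length of the longest transcript it was 0.832 in p21, 0.882 in p16 and 0.883 in EV libraries. Which of these chains stood higher thus depended on the length used. Col6a1 to Col6a2 ratios overlapped between all groups, at 3.25 ± 0.15 in p21, 3.09 ± 0.11 in p16 and 3.08 ± 0.075 in EV libraries. By the longest transcript they were 2.05 in p21, 1.95 in p16 and 1.94 in EV libraries.

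The spread of each chain was split into the span of the 3 group means and the span of the 3 means by replicate number, on log2 CPM. Among 31 tested chains with a mean of at least 1 CPM, the replicate span was the larger in 11 (35.5%), against 25.5% of 12034 genes. The median group span was 0.35, against 0.18 over all genes, and the median replicate span 0.21, against 0.09. Chains of cartilage led the replicate spans after Col19a1 (0.996): Col2a1 (0.96) and Col10a1 (0.90), with Col11a2 at 0.58 and Col11a1 at 0.55. Of the chains with the widest group spans, Col19a1 (1.04) and Col20a1 (0.92) also had wide replicate spans, of 0.996 and 0.38. The next, Col4a5 (group span 0.74), Col6a2 (0.67) and Col6a1 (0.59), had replicate spans of 0.03, 0.10 and 0.14.

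**Figure D5:**
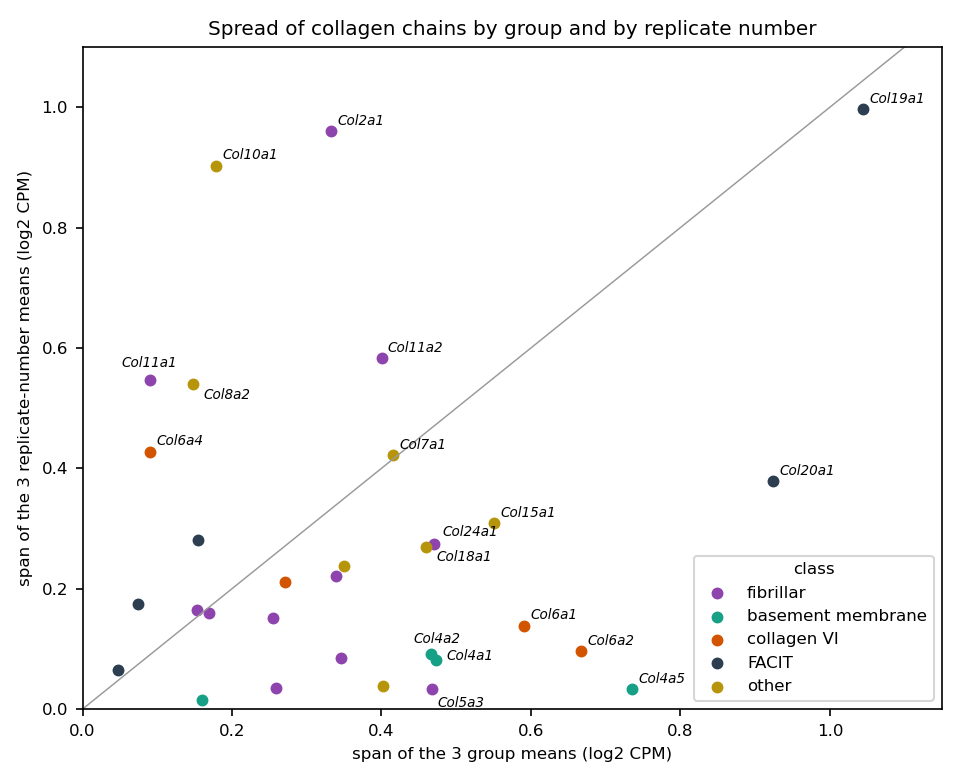
Span of the 3 group means (horizontal axis) against the span of the 3 replicate-number means (vertical axis), both in log2 CPM, for 31 tested chains with a mean of at least 1 CPM, coloured by class; the line marks equal spans. Col2a1 and Col10a1 lie far above the line, and Col4a5, Col6a2, Col6a1 and Col5a3 lie far below it.

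The genes that make, handle and bind collagen were followed as 62 companions in 6 lists. Of 58 tested, 33 changed with p21, 31 of them higher, which was 56.9% where 40.0% of all genes passed. With p16, 20 rose and 0 fell (34.5%, where 11.4% passed), a count of 9 without EV replicate 1, 13 without EV replicate 2, 9 without p16 replicate 2, 12 without p16 replicate 3 and 33 with the replicate block. In p21 against p16, 11 differed, 9 higher and 2 lower (19.0%, where 13.1% passed). This count was 4 without p21 replicate 1, 5 without p21 replicate 3, 3 without p16 replicate 1, 5 without p16 replicate 2 or 3 and 23 with the block.

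The steps are read against all genes, of which 19.8% were higher and 20.1% lower with p21, and 5.80% higher and 5.56% lower with p16. By step, 10 of 16 hydroxylation and glycosylation genes rose with p21 and 8 of 16 with p16, with none lower. Fkbp10, an endoplasmic reticulum foldase needed for collagen cross-linking, averaged 666 CPM in p21, 605 CPM in p16 and 538 CPM in EV libraries (0.31 ± 0.033 with p21, edgeR adjusted p = 1.47e-05). P4ha1, a prolyl 4-hydroxylase subunit, averaged 516 CPM in p21, 546 CPM in p16 and 446 CPM in EV libraries (0.21 ± 0.043 with p21, edgeR adjusted p = 0.00184, and 0.29 ± 0.043 with p16, edgeR adjusted p = 0.00145). Of 13 tested folding and export genes, 4 rose and 1 fell with p21, a called share of 38.5% where 40.0% of all genes passed, and 3 rose with p16. Sparc, a collagen-binding chaperone-like matrix protein, averaged 5399 CPM in p21, 5048 CPM in p16 and 4152 CPM in EV libraries (0.38 ± 0.033 with p21, edgeR adjusted p = 2.94e-06).

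Propeptide removal genes rose in 3 and fell in 1 of 7 tested with p21 and rose in 1 with p16. Of all genes, 19.8% rose and 20.1% fell with p21, and 5.80% rose with p16. Bmp1, the C-propeptide protease, averaged 413 CPM in p21, 371 CPM in p16 and 319 CPM in EV libraries (0.37 ± 0.052 with p21, edgeR adjusted p = 1.17e-04). Of 6 cross-linking genes 5 rose with p21 and 3 with p16. Tgm2, a transglutaminase, averaged 175 CPM in p21, 123 CPM in p16 and 73.3 CPM in EV libraries and rose by 1.26 ± 0.042 with p21 (edgeR adjusted p = 5.13e-09), by 0.74 ± 0.042 with p16 (edgeR adjusted p = 1.34e-06) and by 0.51 ± 0.041 for p21 against p16 (edgeR adjusted p = 9.17e-06). Loxl2, a lysyl oxidase known for acting on collagen IV, averaged 1548 CPM in p21, 1474 CPM in p16 and 1153 CPM in EV libraries (0.42 ± 0.057 with p21, edgeR adjusted p = 1.0e-04, and 0.35 ± 0.057 with p16, edgeR adjusted p = 0.00264). Lox, which acts on fibrils, rose by 0.24 ± 0.072 with p21 (edgeR adjusted p = 0.0196), lost without EV replicate 1 or 2 or p21 replicate 3 (highest edgeR adjusted p = 0.0813).

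Collagen receptor genes rose in 6 of 9 tested with p21, in 3 with p16 and in 4 in p21 against p16, with none lower. The shares of all genes that were higher were 19.8%, 5.80% and 6.15% in the same order. Itgb1, the β1 integrin subunit, averaged 3176 CPM in p21, 2656 CPM in p16 and 2269 CPM in EV libraries (0.48 ± 0.038 with p21, edgeR adjusted p = 1.20e-06). Ddr1, a collagen-binding receptor kinase, averaged 206 CPM in p21, 172 CPM in p16 and 141 CPM in EV libraries (0.54 ± 0.042 with p21, edgeR adjusted p = 1.20e-06). Of 7 tested breakdown genes, 3 rose with p21 and 2 with p16, where 19.8% and 5.80% of all genes rose. Their called share with p21 was 42.9%, near the 40.0% of all genes that passed in either direction. Mmp13, a collagenase, averaged 3.67 CPM in p21, 2.46 CPM in p16 and 1.48 CPM in EV libraries (1.32 ± 0.17 with p21, edgeR adjusted p = 7.90e-05).

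Marker lists of 8 cell types, fibroblasts included, were read beside these values, against the 40.0% of all genes that passed with p21 and the 11.4% that passed with p16. By direction, 19.8% of all genes were higher and 20.1% lower with p21, and 5.80% higher and 5.56% lower with p16. The 10 fibroblast markers summed to 23259 to 24371 CPM in p21 libraries, 21040.5 to 21786 CPM in p16 libraries and 17922 to 19064 CPM in EV libraries. Among them 4 rose and 3 fell with p21 and 1 rose with p16. The 8 smooth muscle markers summed to 14489 to 15043 CPM in p21 libraries, 11998 to 12405 CPM in p16 libraries and 10603 to 10904 CPM in EV libraries, and 6 rose with p21 and 5 with p16. These sums were separate between all 3 groups, and the cartilage sum given above was separate between p21 and EV and between p16 and EV.

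The other lists held less RNA or fewer calls. The 18 macrophage and leukocyte markers summed to 47.1 to 64.4 CPM in p21 libraries, 36.3 to 65.2 CPM in p16 libraries and 28.0 to 44.1 CPM in EV libraries. Of 15 tested, 6 were higher with p21 (40.0%) and none lower, where 19.8% of all genes were higher. None passed with p16, and Cd3e was at 0. The 10 endothelial markers summed to 16.3 to 18.1 CPM in p21 libraries, 12.1 to 14.9 CPM in p16 libraries and 11.7 to 13.9 CPM in EV libraries, with 1 of 7 tested higher with p21 and none with p16. Their defining genes Pecam1, Cdh5, Tie1 and Cldn5 averaged at most 0.226 CPM in any group, so most of the sum came from the other markers of the list. The 9 epithelial markers summed to 69.2 to 84.9 CPM in p21 libraries, 67.3 to 81.9 CPM in p16 libraries and 58.9 to 76.2 CPM in EV libraries, with 2 of 4 tested higher with p21. Among them Epcam, Cdh1, Krt5 and Krt14 averaged at most 0.0895 CPM. Nearly all of the sum thus came from the other markers of the list, Krt8, Krt18, Krt19, Cldn4 and Grhl2. The 8 osteoblast markers summed to 419 to 481 CPM in p21 libraries, 449.6 to 535 CPM in p16 libraries and 464 to 487 CPM in EV libraries, with 1 of 4 tested lower with p21. The 9 markers of Schwann cells and neurons summed to 69.6 to 102 CPM in p21 libraries, 68.5 to 97.7 CPM in p16 libraries and 68.1 to 94.4 CPM in EV libraries, with 2 of 6 tested higher with p21. The part of these markers in the values of the collagen chains was not tested.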

How the data were processed

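RNA-seq of 9 libraries was analysed from 1 table of raw counts per gene symbol, deposited by the authors. The submitters' processing notes name the build mm10, the aligners TopHat2 2.0.14 and Bowtie2 2.2.6, and the counter featureCounts 1.4.6 of Subread. The annotation and any strand option of the counter are not given in the sources used here. Per the labels, the library kit keeps no strand.

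edgeR 4.0.16 in R 4.3.3 took the counts through filterByExpr by group (minimum count 10, minimum total 15), TMM scaling and 1 quasi-likelihood model over the 3 groups, with 6 residual degrees of freedom and a biological coefficient of variation of 7.30%. The SE of a log2 fold change is its size over the root of its F statistic. Exon lengths, positions and overlaps came from GENCODE M21 (GRCm38), which matched 22750 of 24062 symbols, and promoter windows came from RefSeq. Summed levels were tested by exact permutation. Python 3.11.15, pandas 2.3.3 and matplotlib 3.10.9 made the tables and figures. The fit was tested on simulated data, drawn without any difference by replicate number. That test therefore does not cover the replicate 3 difference described above.

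The collagen chains, companion lists, marker lists and tests were chosen with earlier results of these data known. Every chain is accounted for, the companions named are among up to 4 per list and comparison with the smallest adjusted p, and each of the 8 marker lists is given by its summed CPM, with defining markers by their level. The main fit held no term for the replicate number, so its calls ignore any pairing. The replicate block, an alternative, took replicate numbers to pair the samples. Once group means were removed, the 9 pairs of libraries that share a number correlated over genes at r = 0.126 to 0.361, and the 18 other pairs at -0.246 to 0.106. The blocked value of a chain stands where it changes a call or where an alternative ended the call. Alternatives were RLE size factors, library totals only, no filter, DESeq2 1.42.0, limma-voom (limma 3.58.1), only the 2 groups compared, the replicate block, each of 9 libraries left out, and replicates 1 and 2 alone.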

Additional observations from a re-analysis of the deposited data

How the results depend on the processing

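No call of a collagen chain changed sign under an alternative. Of the values of single chains under the alternatives, 1789 kept their direction and side of the threshold, 50 passed where they had not, 59 no longer passed, and 81, all of differences that did not pass, changed sign. The replicate block, a paired fit, gave 24 collagen chains for p21 against EV (20 without it), 13 for p16 against EV (8 without it) and 16 for p21 against p16 (8 without it), and 33 companion genes for p16 against EV (20 without it) and 23 for p21 against p16 (11 without it). It ended 1 call, that of Col22a1 with p21. With 1 library left out, collagen chains called ran from 14 to 20 for p21 against EV, 8 to 9 for p16 against EV and 6 to 9 for p21 against p16, and companion genes from 26 to 32, 9 to 23 and 3 to 10 in the same order. The log2 difference of the summed level ran over 0.11 to 0.19, 0.11 to 0.20 and -0.02 to 0.03 in that order. Replicates 1 and 2 alone gave 19, 11 and 9 chains. By longest transcript, a length chosen for the chain ratios after seeing the data, 9 of the first 10 chains in EV libraries were the same. Depth limits the chains that averaged under 1 CPM.

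The log2 fold changes that took both signs with 1 library left out, none of them called, had these ranges. For p21 against EV: Col2a1 -0.63 to 0.0013, Col6a4 -0.033 to 0.16, Col10a1 -0.079 to 0.38, Col11a1 -0.059 to 0.24, Col12a1 -0.034 to 0.018, Col14a1 -0.22 to 0.018, Col17a1 -0.28 to 0.19, Col23a1 -0.33 to 0.22, Col28a1 -0.11 to 0.22. For p16 against EV: Col2a1 -0.56 to 0.16, Col3a1 -0.057 to 0.089, Col4a4 -0.00046 to 0.57, Col6a3 -0.031 to 0.11, Col6a4 -0.015 to 0.26, Col8a2 -0.15 to 0.26, Col9a2 -0.80 to 0.40, Col9a3 -0.13 to 1.01, Col10a1 -0.26 to 0.18, Col11a1 -0.093 to 0.20, Col14a1 -0.062 to 0.17, Col17a1 -0.18 to 0.35, Col23a1 -0.19 to 0.39. For p21 against p16: Col1a1 -0.019 to 0.054, Col2a1 -0.43 to 0.20, Col4a4 -0.062 to 0.52, Col4a6 -0.035 to 0.15, Col6a4 -0.18 to 0.078, Col8a2 -0.040 to 0.30, Col9a3 -0.32 to 0.56, Col10a1 -0.047 to 0.42, Col11a1 -0.11 to 0.18, Col11a2 -0.13 to 0.41, Col16a1 -0.050 to 0.049, Col17a1 -0.37 to 0.11, Col19a1 -0.053 to 0.81, Col23a1 -0.28 to 0.044. Under other settings, single values changed sign for Col12a1 0.019 (p21 against EV, replicates 1 and 2 alone), Col23a1 0.21 (p21 against EV, replicates 1 and 2 alone), Col3a1 -0.014 (p16 against EV, library totals only), Col4a4 -0.013 (p16 against EV, replicates 1 and 2 alone), Col4a6 -0.049 (p16 against EV, replicates 1 and 2 alone), Col9a2 -0.026 (p16 against EV, library totals only), Col9a2 -0.0064 (p16 against EV, no filter), Col9a2 -0.095 (p16 against EV, limma-voom), Col9a2 -0.038 (p16 against EV, replicate block), Col1a1 -0.0071 (p21 against p16, library totals only), Col6a4 0.017 (p21 against p16, limma-voom), Col16a1 0.040 (p21 against p16, replicates 1 and 2 alone); the cause was not tested.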
